A study of Mus musculus with 6 samples.

Results

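The transcripts of 10 genes that move calcium in and out of the sarcoplasmic reticulum of muscle fibers were followed in the soleus (Sol), a slow-dominant leg muscle, in 2 genotypes of mouse, WT and LSD1-mKO, trained by voluntary wheel running (VWR). The genes were chosen by symbol for their known roles, with earlier results of these data known, and are 10 of the 24411 genes in the count table. Slow and fast counterparts among them are the calcium pumps Atp2a1 (fast) and Atp2a2 (slow) and the luminal buffers Casq1 (fast) and Casq2 (slow). The others are the pump inhibitors Sln and Pln, the cytosolic buffer Pvalb, the release channel Ryr1, and the voltage sensor subunits Cacna1s and Cacng1. All 10 were listed in the table and all 10 had enough counts to be tested.

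A muscle fiber contracts when its sarcoplasmic reticulum releases calcium and relaxes when the calcium is pumped back. The voltage sensor of the surface membrane opens the release channel, calsequestrin holds calcium inside the store, parvalbumin takes it up in the cytosol of fast fibers, and a SERCA pump returns it to the store, slowed by the small membrane proteins phospholamban and sarcolipin. Fast fibers are known for the pump SERCA1 with much parvalbumin, and slow fibers for SERCA2 and cardiac calsequestrin, and mouse Sol is a mixture of slow type I and fast type IIA fibers.

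The series holds 6 poly(A) RNA-seq libraries, 1 per mouse, from 3 WT and 3 LSD1-mKO mice. LSD1, encoded by Kdm1a, is a demethylase that removes methyl groups from histone lysines. LSD1-mKO mice carried Lsd1 flox/flox alleles with CreERT2, a recombinase that acts once tamoxifen is given, under the promoter of human ACTA1, which is active in differentiating and differentiated muscle cells, so that other cells of the tissue kept the gene. WT mice carried the floxed alleles without CreERT2. Both genotypes were male C57BL/6 mice, were 8 weeks old when they were housed singly with a wheel for 38 days, and received tamoxifen at 75 mg/kg on 5 successive days after 3 days of familiarization. Running distance was recorded over 30 days, and the mice were off the wheel and fasted for 6 h before tissue was taken. No sedentary mice belong to the series, so every level below is that of a trained muscle. The p-values for genotype set the difference between genotypes against the spread between libraries, 1 per mouse.

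Libraries held between 8940206 and 13798059 estimated counts. Levels are CPM, the counts scaled to a common library size after TMM normalization for composition, or TPM, which also divide by transcript length and were used whenever different genes were compared. Kdm1a (chr4:136550540-136602723, mm10) was at 40.5, 38.2 and 33.6 CPM in the WT mice and at 14.6, 16.6 and 16.6 CPM in the LSD1-mKO mice, in replicate order, with no overlap. Its log2 fold change (LSD1-mKO over WT) was -1.23 (SE 0.109, n = 3 mice per genotype, edgeR quasi-likelihood test, Benjamini-Hochberg adjusted p = 0.0160). Without single mice its log2 fold change ran from -1.30 to -1.17 and its edgeR adjusted p from 0.0334 to 0.209, and with replicate number as a block that p was 0.299. Summed CPM of slow sarcomere genes (8 of 8 listed) were 30372.6 to 37892.3 in WT and 31529.8 to 39413.7 in LSD1-mKO mice, those of fast ones (9 of 9) were 43072.6 to 61678.8 and 41628.1 to 53948.7, and the atrial gene Myl7 was at 0 in all 6 libraries. Summed fibroblast markers (6 of 6 listed) ranged from 1329.3 to 4395.1 CPM in WT and from 1361.4 to 2800.7 CPM in LSD1-mKO mice, and the sums of all 10 marker lists overlapped between genotypes. Fitted levels in LSD1-mKO were lower for all 6 fibroblast, all 4 tested immune and all 3 tested heart muscle genes. Their median log2 fold changes were -0.73, -0.57 and -0.15, and none of these genes had an edgeR adjusted p under 0.05. The other lists held genes in both directions. In whole muscle, fewer cells of a type and less RNA per cell cannot be told apart.

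Of the small pump inhibitors, both are shown here as their whole coding sequences, because they are single short reading frames and because Sln had the smallest unadjusted p of the 10 genes, without passing correction. Sln encodes a peptide of 31 residues from 96 coding bases, and Pln a peptide of 52 residues from 159 coding bases (GENCODE vM21, GRCm38). The capitals mark the start and the stop codon.

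Sln: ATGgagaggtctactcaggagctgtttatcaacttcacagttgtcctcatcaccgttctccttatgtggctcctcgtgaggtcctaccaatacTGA

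Pln: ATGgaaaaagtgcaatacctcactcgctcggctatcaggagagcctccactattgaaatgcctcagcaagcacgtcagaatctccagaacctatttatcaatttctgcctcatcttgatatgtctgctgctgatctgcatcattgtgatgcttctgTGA

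The pump genes, by contrast, are close relatives. The coding sequences of Atp2a1 (994 codons) and Atp2a2 (1044 codons) were identical at 75.4% of the bases of the shorter one when aligned, and the longest run that their transcripts share was 44 bases, below the read length of 75 bases. The calsequestrin genes Casq1 and Casq2 were identical at 67.1%, with a longest shared run of 25 bases. Estimated counts that were not whole numbers occurred for Atp2a1 and Atp2a2 in 6 libraries, for Ryr1 in 5, for Casq1 in 2 and for Cacna1s in 1, while the other 5 genes had whole counts throughout. Counts are per gene, so that splice forms such as the muscle and the housekeeping form of SERCA2 were not separated.

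The order of transcript levels per length put the fast pump first. Averaged over the 6 mice, Atp2a1 stood at 7757.9 TPM (SD 834.0), which was rank 13 of all genes with a length, and Atp2a2 at 3473.6 TPM (SD 581.1), rank 33. Casq1, the skeletal calsequestrin, came next with 1111.9 TPM (SD 81.0). These first 3 levels did not overlap with each other or with any lower one in any mouse.

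Sln followed with 505 TPM (SD 118), Ryr1 with 462 TPM (SD 70.6), Casq2 with 421 TPM (SD 123) and Cacna1s with 396 TPM (SD 38.8). The ranges of neighbors in this middle group overlapped at each step, from Sln to Ryr1, from Ryr1 to Casq2 and from Casq2 to Cacna1s, so their order is not resolved by these mice. Pvalb (232 TPM, SD 99.9) and Cacng1 (145 TPM, SD 18.8) also overlapped with each other.

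Pln was far below the rest, at 15.2 TPM (SD 4.03), rank 5871, although it and Sln act on the same pumps. In counts, Pln rested on 112 to 243 estimated counts per library against 2317 to 4603 for Sln. The order of the 10 genes was the same when median transcript lengths were used in place of the longest.

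**Figure D1:**
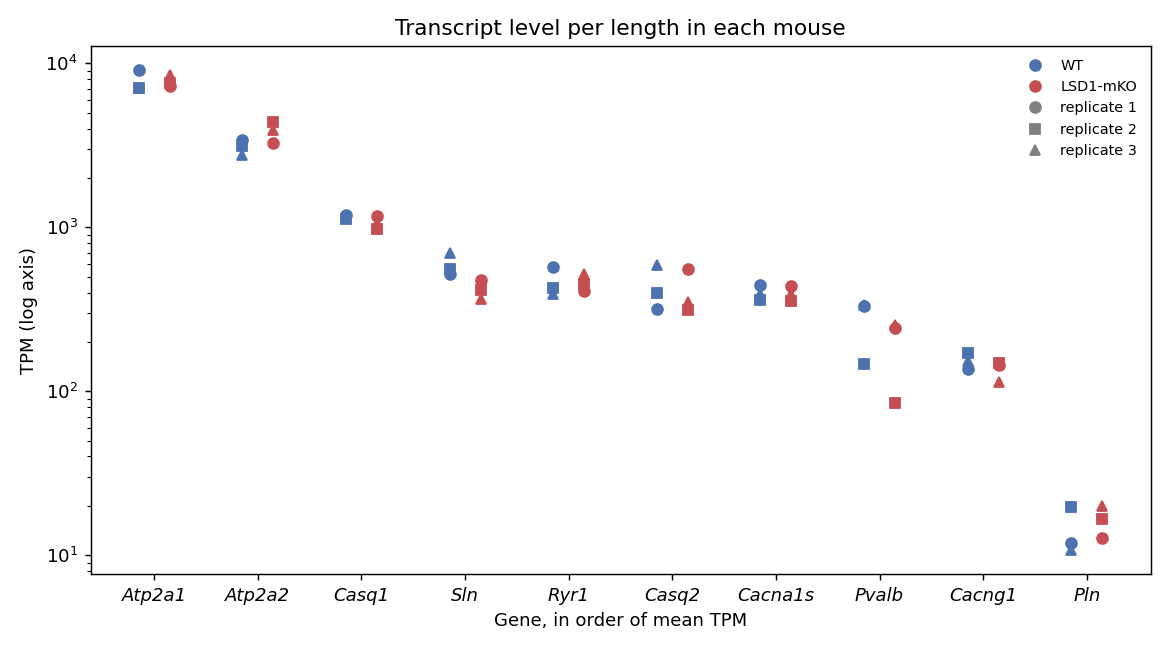
Transcript level in TPM (log axis) of the 10 genes in each of the 6 mice, ordered by mean level, with WT in blue, LSD1-mKO in red and replicates as circles, squares and triangles. Atp2a1, Atp2a2 and Casq1 lie above all the others in every mouse, Sln to Cacna1s overlap, and Pln lies lowest, between 10.7 and 19.9 TPM.

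Between genotypes, the clearest difference was in the pump inhibitor Sln. Its 3 LSD1-mKO values all lay below its 3 WT values, at a fitted 0.716 of the WT level, and the fitted level of the slow pump Atp2a2 was 1.24-fold higher, with overlapping mice. The fast pump Atp2a1, the release channel Ryr1 and the voltage sensor Cacna1s had log2 fold changes within 0.03 of 0. None of the 10 genes passed the adjusted threshold of 0.05.

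In the edgeR quasi-likelihood test with Benjamini-Hochberg adjustment over 12828 genes, 0 of the 10 genes had an adjusted p under 0.05, where 0.0156% of all genes tested did. DESeq2, which called 0.327% of all genes tested, and limma voom also gave 0 of the 10. At an unadjusted p under 0.05, 1 of the 10 was called, Sln, against 6.4% of all genes tested, 3.52% in the higher and 2.88% in the lower direction. DESeq2 called 2 (Atp2a2 and Sln) at the same unadjusted threshold, where 4.5% of all genes were called, and voom 1. The genotypes did not overlap for 1 of the 10 genes, again Sln, against 12.7% of all genes tested, 6.63% in the higher and 6.1% in the lower direction. Fitted levels were higher in LSD1-mKO for 2 genes and lower for 8, with a median log2 fold change of -0.05 against -0.02 for all genes tested.

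**Figure D2:**
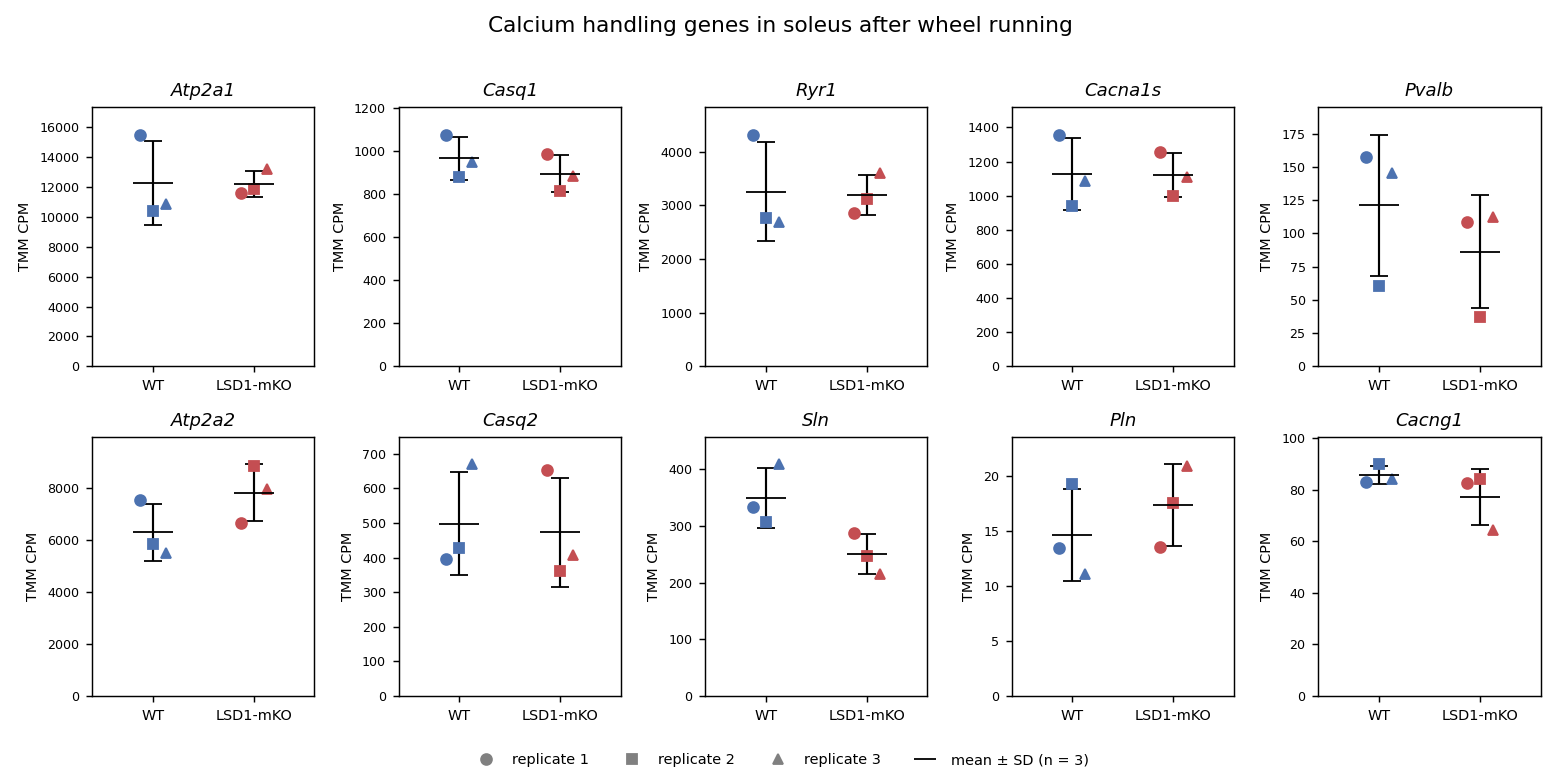
TMM CPM of the 10 genes in each mouse (linear axes from 0), with WT in blue, LSD1-mKO in red, replicates as circles, squares and triangles, and the mean ± SD (n = 3) in black. Only the Sln panel has all 3 LSD1-mKO mice (215.8 to 287.8 CPM) below all 3 WT mice (306.5 to 408.9 CPM).

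The fast pump Atp2a1 (chr7:126445858-126463108, minus strand), which encodes SERCA1, was at 15503.5, 10397.7 and 10863.8 CPM in the WT mice and at 11587.9, 11847.5 and 13239.9 CPM in the LSD1-mKO mice. WT 1 was the highest of the 6 and the other WT mice the lowest, so the LSD1-mKO mice lay inside the WT range. The log2 fold change was -0.0035 (SE 0.198, n = 3 per genotype, 95% interval -0.457 to 0.450, edgeR, Benjamini-Hochberg adjusted p = 0.997). Without WT 1 it was 0.20, and the value thus turned with the mice included. The interval leaves room for a level between 0.728 and 1.37 times that of WT.

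The slow pump Atp2a2 (chr5:122453513-122502225, minus strand), which encodes SERCA2, was at 7529.3, 5868.0 and 5487.5 CPM in the WT mice and at 6656.4, 8841.6 and 7958.8 CPM in the LSD1-mKO mice. The highest 2 of the 6 mice were LSD1-mKO and the lowest 2 were WT, with WT 1 and LSD1-mKO 1 crossing in between. On the log2 scale the fitted difference was 0.31 (SE 0.181, n = 3 per genotype, 95% interval -0.102 to 0.727, edgeR, Benjamini-Hochberg adjusted p = 0.777), with an unadjusted p of 0.121. The exact 2-sided permutation test over the 20 assignments of mice gave p = 0.2, where the smallest possible is 0.1.

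The direction for Atp2a2 was the same without any single mouse, with log2 fold changes from 0.22 without LSD1-mKO 2 to 0.46 without WT 1. Without WT 1 the unadjusted p in edgeR was 0.0108, and DESeq2 on all 6 mice gave an unadjusted p of 0.0439 with an adjusted p of 1.000. Atp2a2 was highest in the 3 mice with the lowest summed fibroblast markers, which were LSD1-mKO 2 (1361.4 CPM of markers), LSD1-mKO 3 (1488.0 CPM) and WT 1 (1329.3 CPM). The sums in the other mice were 3437.3 CPM in WT 2, 4395.1 CPM in WT 3 and 2800.7 CPM in LSD1-mKO 1. WT 1, LSD1-mKO 2 and LSD1-mKO 3 were also the lowest in summed endothelium markers (519.0 to 537.5 against 631.1 to 741.0 CPM). The same held for immune markers (21.7 to 36.2 against 60.7 to 92.9 CPM) and for the adipocyte and heart muscle sums. It did not hold for the other marker lists. The same 3 mice were also the highest of the 6 in Atp2a1 and Ryr1 and the lowest in Casq2. The part of these sums in the results of these genes and of Atp2a2 was not tested.

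Of the 8 ratios set within each mouse, slow over fast pump was the only 1 that separated the genotypes. Among single genes, 12.7% of all those tested were apart in this way. The ratio of Atp2a2 to Atp2a1, taken from TMM CPM, was 0.486, 0.564 and 0.505 in the WT mice and 0.574, 0.746 and 0.601 in the LSD1-mKO mice. Every LSD1-mKO mouse lay above every WT mouse, although WT 2 and LSD1-mKO 1 were close, and LSD1-mKO 2 was the highest. The mean log2 ratio was higher by 0.30 in LSD1-mKO (SE 0.133, n = 3 per genotype), a 1.23-fold higher ratio, with an exact permutation p of 0.1, the smallest possible with 3 against 3 mice, and 0.533 after Benjamini-Hochberg adjustment over the 8 ratios compared. Without LSD1-mKO 2 the difference was 0.18, and without LSD1-mKO 1 it was 0.37.

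Per length, Atp2a2 made up 27.3%, 30.4% and 28.1% of the summed TPM of both pumps in the WT mice and 30.8%, 36.6% and 31.8% in the LSD1-mKO mice. The means were 28.6% ± 1.6 (SD, n = 3) and 33.1% ± 3.13 (SD, n = 3), or 20.3% ± 1.27 and 23.9% ± 2.58 when median transcript lengths were used. A change of length scales the pump ratio alike in every mouse and cannot alter their order. The summed TPM of both pumps overlapped, at 10854.8 ± 1478.3 (SD) in WT and 11608.4 ± 934.4 (SD) in LSD1-mKO mice (exact permutation p = 0.5, n = 3 per genotype). Atp2a3, the third SERCA gene, contributed 0.125% ± 0.0277 of the 3 pumps in WT and 0.104% ± 0.0223 in LSD1-mKO mice.

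**Figure D3:**
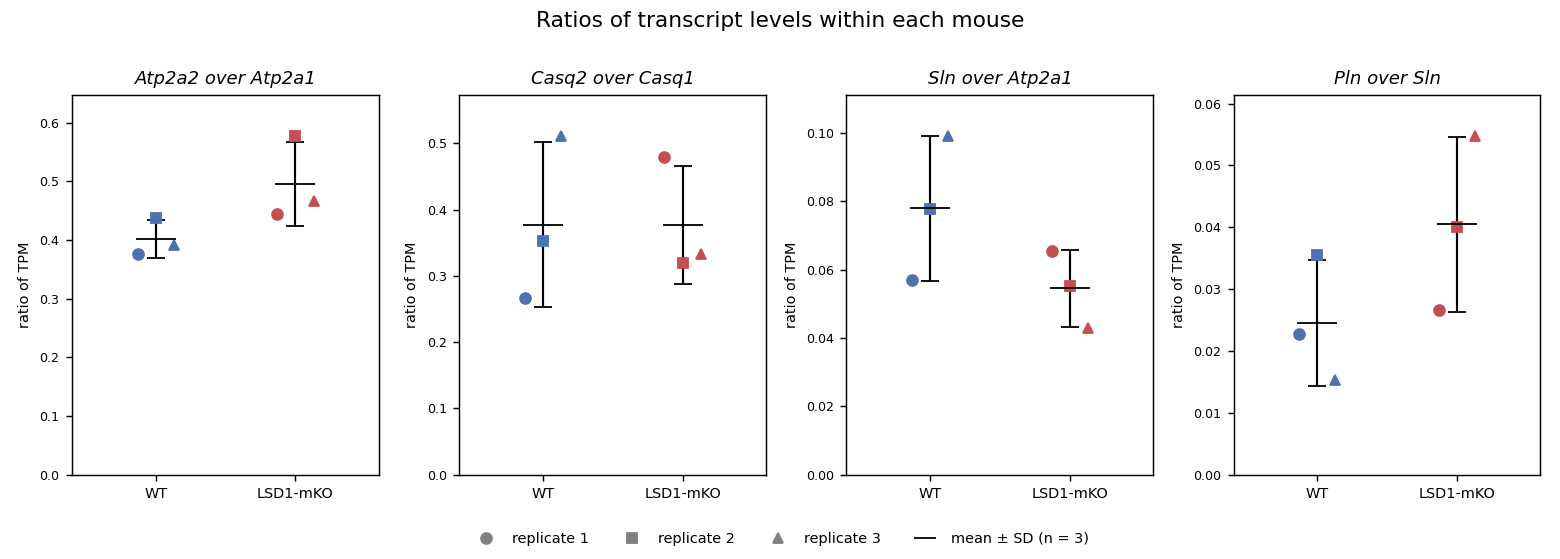
Ratios of TPM within each mouse for slow over fast pump, slow over fast calsequestrin, Sln over Atp2a1 and Pln over Sln (linear axes from 0), with WT in blue, LSD1-mKO in red and the mean ± SD (n = 3) in black. The genotypes are apart only for Atp2a2 over Atp2a1 (0.376 to 0.437 in WT and 0.445 to 0.578 in LSD1-mKO) and overlap in the other 3 panels.

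Sln (chr9:53850164-53854560, plus strand) encodes sarcolipin, which slows SERCA pumps and uncouples their ATP use from calcium transport. In the gastrocnemius, a fast-dominant muscle, of mice given dexamethasone, the study reported Sln as higher in LSD1-mKO. It counted Sln there among its slow fiber genes, as a hallmark of oxidative fibers. That muscle and treatment differ from the trained Sol followed here. Sln was at 334, 307 and 409 CPM in the WT mice and at 288, 248 and 216 CPM in the LSD1-mKO mice. The lowest WT mouse (WT 2) lay above the highest LSD1-mKO mouse (LSD1-mKO 1). In edgeR its log2 fold change was -0.48 (SE 0.142, n = 3 per genotype, edgeR, Benjamini-Hochberg adjusted p = 0.594), a level 0.716 times that of WT with a 95% interval of 0.571 to 0.897. Its unadjusted p was 0.00898, and the exact permutation p was 0.1, the smallest possible.

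The direction and the unadjusted call of Sln were kept without any single mouse, with log2 fold changes from -0.59 without LSD1-mKO 1 to -0.35 without WT 3 and unadjusted edgeR p-values between 0.00461 and 0.0400. Adjusted p-values over all the alternatives ran from 0.241 to 0.998, so the difference did not pass correction for the number of genes under any of them. Expressed per 100 TPM of both pumps, Sln was at 4.13, 5.41 and 7.14 in the WT mice and at 4.53, 3.5 and 2.93 in the LSD1-mKO mice. WT 1 and LSD1-mKO 1 crossed on this scale (5.56 ± 1.51 and 3.65 ± 0.812, SD, n = 3, exact permutation p = 0.2). The log2 ratio of Sln to Atp2a1 differed by -0.50 (SE 0.292, exact permutation p = 0.2, n = 3 per genotype), with the same crossing of these mice.

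Pln (chr10:53337667-53345987, plus strand) encodes phospholamban, the inhibitor known from heart and slow fibers. It was at 13.5, 19.3 and 11.1 CPM in the WT mice and at 13.5, 17.6 and 21.0 CPM in the LSD1-mKO mice. The lowest mouse was WT 3 and the highest LSD1-mKO 3, and the ranges overlapped widely. Its fitted log2 fold change was 0.24 (SE 0.228, n = 3 per genotype, edgeR, Benjamini-Hochberg adjusted p = 0.868). It ran from 0.07 without WT 3 to 0.50 without WT 2, where its unadjusted p in edgeR was 0.0484. Per 100 TPM of both pumps, Pln was at 0.132 ± 0.0526 in WT and 0.14 ± 0.0202 in LSD1-mKO mice (SD, n = 3).

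The inhibitors were negatively correlated over the mice, though not in exactly opposite order. WT 2 lay above LSD1-mKO 1 and LSD1-mKO 2 for both genes. Pearson's r between log2 CPM of Pln and Sln was -0.83 over the 6 mice, the lowest of all pairs among the 10 genes, given as a description of mice that also differ in genotype. The TPM ratio of Pln to Sln was 0.0228, 0.0355 and 0.0153 in the WT mice and 0.0266, 0.0401 and 0.0548 in the LSD1-mKO mice, so that Sln transcripts outnumbered Pln in every mouse. The log2 ratio was higher by 0.74 in LSD1-mKO (SE 0.463), the genotypes overlapped, and the exact permutation p was 0.2 (n = 3 per genotype). Pln relative to its slow pump Atp2a2 differed by a log2 ratio of -0.05 (SE 0.297, exact permutation p = 0.9, n = 3 per genotype).

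Both calsequestrins overlapped between genotypes. Casq1 (chr1:172209894-172219868, minus strand), the main calcium store protein of skeletal fibers, was at 1073.9, 877 and 946 CPM in the WT mice and at 983, 813 and 883 CPM in the LSD1-mKO mice. It was the steadiest gene from mouse to mouse, with the highest mouse 1.32-fold above the lowest, and its log2 fold change was -0.11 (SE 0.119, edgeR, Benjamini-Hochberg adjusted p = 0.884). Casq2 (chr3:102086415-102146514, plus strand), the cardiac form that slow fibers also use, was at 396, 428 and 669 CPM in the WT mice and at 653, 360 and 406 CPM in the LSD1-mKO mice. In each genotype 1 mouse was high (WT 3 and LSD1-mKO 1) and the other two were low.

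The log2 fold change of Casq2 was -0.07 (SE 0.262, edgeR, Benjamini-Hochberg adjusted p = 0.964) and ran from -0.38 to 0.20 when single mice were left out. The share of Casq2 in the summed TPM of both calsequestrins was 27.0% ± 6.45 in WT and 27.2% ± 4.54 in LSD1-mKO mice (SD, n = 3). Its log2 ratio to Casq1 differed by 0.03 (SE 0.330, exact permutation p = 1.0, n = 3 per genotype). WT 3 and LSD1-mKO 1 had the highest ratios of 0.708 and 0.664 (TMM CPM), and WT 1 the lowest, 0.369.

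Pvalb (chr15:78191114-78206400, minus strand) encodes parvalbumin, the soluble calcium buffer of fast fibers. It was at 158, 60.0 and 145 CPM in the WT mice and at 109, 37.3 and 113 CPM in the LSD1-mKO mice. The highest mouse was 4.23-fold above the lowest, by far the widest span of the 10 genes, and 1 mouse of each genotype (WT 2 and LSD1-mKO 2) was low. The log2 fold change was -0.49 (SE 0.449, n = 3 per genotype, 95% interval -1.52 to 0.54, edgeR, Benjamini-Hochberg adjusted p = 0.866). It was -0.12 without LSD1-mKO 2 and -0.81 without WT 2. The size of the fitted difference was near that of Sln, with a much wider interval.

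The release channel and the voltage sensor had fitted differences near 0, with intervals that reach well to either side. Ryr1 (chr7:29003344-29125179, minus strand), the skeletal ryanodine receptor, was at 4312.0, 2754.2 and 2680.3 CPM in the WT mice and at 2849.9, 3124.3 and 3600.3 CPM in the LSD1-mKO mice. WT 1 was the highest mouse, as for Atp2a1, and the log2 fold change was -0.03 (SE 0.203, 95% interval -0.49 to 0.44, edgeR, Benjamini-Hochberg adjusted p = 0.983). Without WT 1 it was 0.23.

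Cacna1s (chr1:136052750-136119822, plus strand), the pore and voltage sensor of the L-type channel that opens Ryr1, was at 1356.5, 941 and 1083.8 CPM in the WT mice and at 1254.1, 998 and 1109.7 CPM in the LSD1-mKO mice. Its log2 fold change was -0.0082 (SE 0.155, 95% interval -0.36 to 0.35, edgeR, Benjamini-Hochberg adjusted p = 0.993). The ranges lay almost on top of each other. Cacng1 (chr11:107703218-107716522, minus strand), the gamma subunit of the same channel, was at 83.1, 89.8 and 84.2 CPM in the WT mice and at 82.8, 84.0 and 64.4 CPM in the LSD1-mKO mice. LSD1-mKO 3 alone was low, and the log2 fold change of -0.15 (SE 0.114, edgeR, Benjamini-Hochberg adjusted p = 0.824) was -0.04 without it.

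The log2 ratio of Ryr1 to Cacna1s differed by 0.0015 (SE 0.195, exact permutation p = 1.0, n = 3 per genotype), and that of Cacng1 to Cacna1s by -0.16 (SE 0.243, exact permutation p = 0.6, n = 3 per genotype). The remaining ratio, Pvalb to Atp2a1, differed by -0.55 (SE 0.617, exact permutation p = 0.5, n = 3 per genotype). Of the 8 ratios, 1 was apart between genotypes and 7 overlapped, where 12.7% of all single genes tested were apart.

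**Figure D4:**
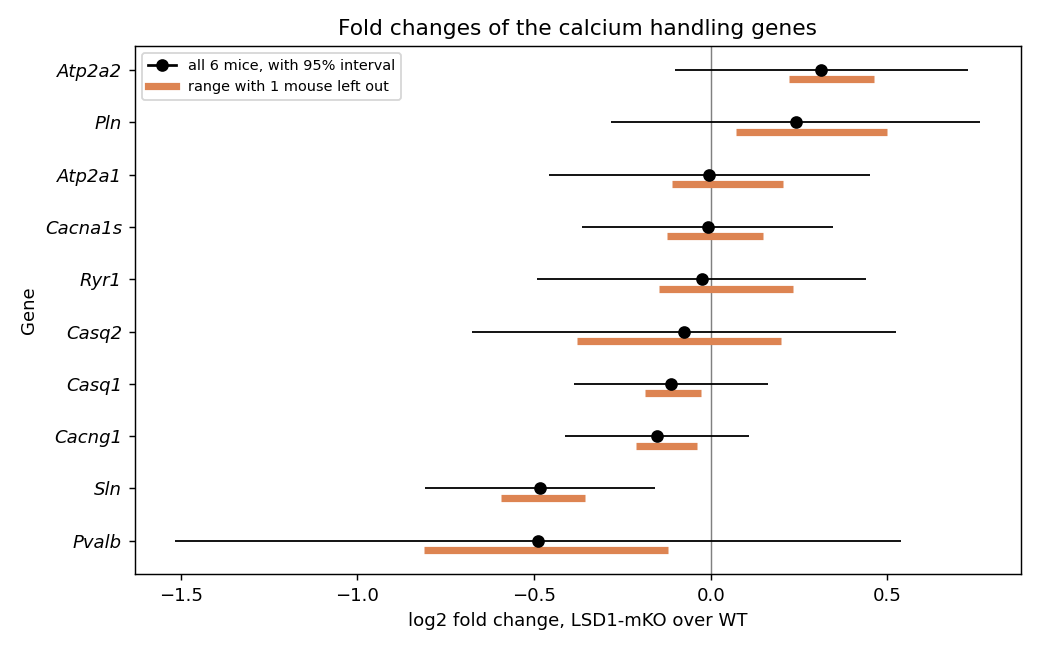
Log2 fold change of the 10 genes, LSD1-mKO over WT, from edgeR with all 6 mice (points, with 95% intervals as thin lines) and the range of the fitted value when single mice are left out (orange bars). Only the interval of Sln (-0.81 to -0.16) lies to 1 side of 0, and the orange bars of Atp2a1, Cacna1s, Ryr1 and Casq2 cross 0.

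Across mice, some of the 10 genes ran together. Atp2a1 and Ryr1 had the highest correlation of log2 CPM of all pairs (Pearson's r 0.98 over the 6 mice), followed by Casq1 with Cacna1s (0.88) and Casq1 with Pvalb (0.84), while Atp2a2 and Sln ran opposite (-0.76). These values describe 6 libraries that differ in tissue makeup and genotype, and no test was made of them. Atp2a1 and Ryr1 were both highest in WT 1, LSD1-mKO 3 and LSD1-mKO 2, the mice with the lowest summed fibroblast markers. The promoters of Atp2a1 and Ryr1 are shown because these genes varied together more closely than any other pair. The part of these promoters in that correlation was not tested. They are the 250 bases before the RefSeq start site in GRCm38.p6, on the minus strand of chr7:126463074-126463323 for Atp2a1 and of chr7:29125152-29125401 for Ryr1, with E-boxes (CANNTG) in capitals.

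Atp2a1 promoter: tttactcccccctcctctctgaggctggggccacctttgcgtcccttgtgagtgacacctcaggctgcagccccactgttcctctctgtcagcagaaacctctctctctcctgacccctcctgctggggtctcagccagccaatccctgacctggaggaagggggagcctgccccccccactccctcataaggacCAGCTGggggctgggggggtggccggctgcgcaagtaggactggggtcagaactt

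Ryr1 promoter: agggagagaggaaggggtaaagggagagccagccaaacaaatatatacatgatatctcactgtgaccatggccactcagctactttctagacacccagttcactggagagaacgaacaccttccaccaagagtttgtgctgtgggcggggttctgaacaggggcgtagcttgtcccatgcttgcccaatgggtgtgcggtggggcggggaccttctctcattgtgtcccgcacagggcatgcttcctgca

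The Atp2a1 window held 1 E-box, which starts 55 bases before the start site, and the Ryr1 window held none. Of all 32851 promoter windows of the same length, 66.2% held at least 1. On both strands, neither window held TATAAA (12.4% of all windows), AAGGTCA, the element of estrogen-related receptors (4.08%), the MCAT element CATTCCT (4.51%), a MEF2 element (0.508%) or a CArG box (1.47%). Among the promoters found for 7 of the 10 genes, AAGGTCA was in none, the MCAT element was in that of Cacna1s, 131 bases before the start, and TATAAA in that of Pln, 219 bases before the start. Promoters of Atp2a2, Sln and Cacng1 were not analysed here.

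Sol samples differ in their mixture of fiber types, so each gene was set against an index, the mean log2 CPM of 8 slow minus that of 9 fast sarcomere genes. The index was 0.07, 0.42 and 0.16 in the WT mice and 0.08, 0.70 and -0.05 in the LSD1-mKO mice. It overlapped between genotypes (exact permutation p = 0.9, n = 3 per genotype), and the slowest-typed mice were LSD1-mKO 2 and WT 2, those low in Pvalb. Pvalb was the gene that followed the index most closely (Pearson's r = -0.90, permutation p = 0.0236, adjusted over 10 genes 0.236, Spearman's rho = -0.71, permutation p = 0.136, n = 6 mice). Without these 2 mice, the farthest from the median of the index, r was 0.52 over the remaining 4. With this index, the relation thus rests on them.

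With an index left without Actn3 and Myh4, the fast genes of lowest level, r for Pvalb was -0.95 (permutation p = 0.00694, adjusted 0.0694, n = 6), rho was -0.94 (permutation p = 0.0167), and r without the same 2 mice was -0.65. For the other 9 genes, r with the first index lay between -0.68 and 0.57. The slow pump Atp2a2 had r = 0.20 (permutation p = 0.693, adjusted 0.770, rho = -0.09, n = 6) and Sln r = -0.08 (permutation p = 0.881, adjusted 0.881, rho = 0.14, n = 6). None of the 10 relations passed after Benjamini-Hochberg adjustment. The first index also holds Actn3, which spanned 7.83-fold between mice (63.6 to 198 CPM in WT and 165 to 498 CPM in LSD1-mKO), and the lowest mouse was LSD1-mKO 3 with it and WT 1 without these genes.

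Other genes of calcium handling gave the setting. A list of 55 further genes of the pumps, channels, triad, store-operated entry, calmodulin and mitochondrial uptake was drawn up, of which 52 were listed and 51 tested. Fitted levels were higher in LSD1-mKO for 29 and lower for 22 (median log2 fold change 0.03). None of the 51 had an adjusted p under 0.05 in edgeR, DESeq2 or voom. At an unadjusted p under 0.05, edgeR and DESeq2 called 3 (5.88%, against 6.4% of all genes in edgeR and 4.5% in DESeq2) and voom 4. The genotypes did not overlap for 6 of the 51 (11.8%, against 12.7% of all genes tested), of which 4 were higher in LSD1-mKO (S100a1, Ryr3, Micu2 and Micu3) and 2 lower (Itpr2 and Camk2g).

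S100a1 (chr3:90511034-90514392), a calcium sensor that binds Ryr1 and SERCA pumps, was at 181, 134 and 144 CPM in the WT mice and at 225, 214 and 213 CPM in the LSD1-mKO mice. All 3 LSD1-mKO mice lay above the highest WT mouse and close to each other. For S100a1 the log2 fold change was 0.51 (SE 0.119, n = 3 per genotype, edgeR, Benjamini-Hochberg adjusted p = 0.448), with an unadjusted p of 0.00242 and a DESeq2 adjusted p of 0.0550. It was 0.42 to 0.65 when single mice were left out.

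Ryr3 (chr2:112631355-113217096), a minor ryanodine receptor of mature muscle, was at 3.50, 3.60 and 4.26 CPM in the WT mice and at 5.77, 6.30 and 5.59 CPM in the LSD1-mKO mice. The log2 fold change was 0.63 (SE 0.181, n = 3 per genotype, edgeR, Benjamini-Hochberg adjusted p = 0.578), with an unadjusted p of 0.00782. Itpr2 (chr6:146108299-146502223), an IP3 receptor that also releases stored calcium, was at 32.6, 30.1 and 29.9 CPM in the WT mice and at 22.1, 24.0 and 23.5 CPM in the LSD1-mKO mice. The genotypes were apart for both genes. The log2 fold change of Itpr2 was -0.41 (SE 0.0894, n = 3 per genotype, edgeR, Benjamini-Hochberg adjusted p = 0.377), with an unadjusted p of 0.00159.

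Beside Ryr3 and S100a1, the next highest fitted value was that of the plasma membrane pump Atp2b3 (0.25, SE 0.240). The lowest were those of Mcub, a subunit of the mitochondrial uniporter that holds back its uptake (-0.60, SE 0.406), of Itpr2, and of Mrln, which encodes the pump inhibitor myoregulin (-0.39, SE 0.215). Atp2b3, Mcub and Mrln overlapped between genotypes. Atp2b3 ran from -0.0014 to 0.47 and Mcub from -0.90 to -0.26 when single mice were left out.

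**Figure D5:**
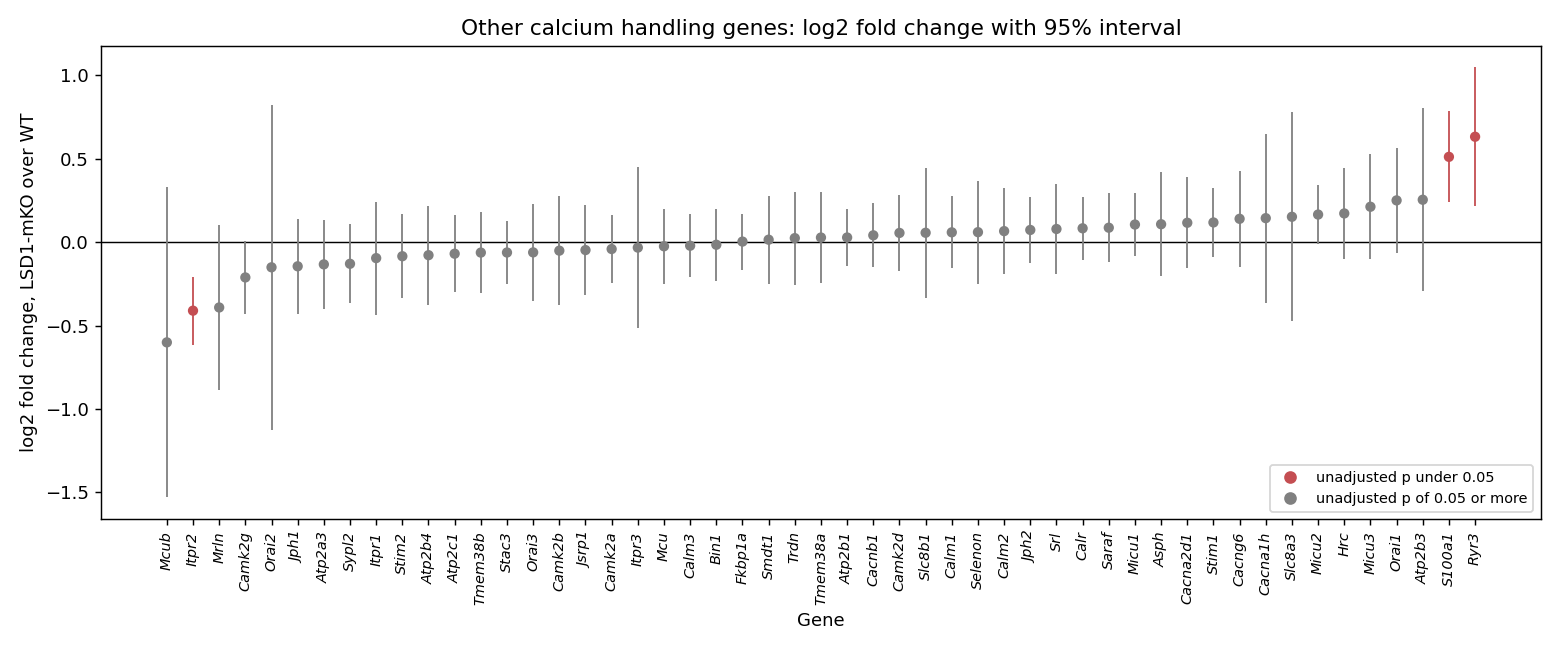
Log2 fold change, LSD1-mKO over WT, with 95% intervals from edgeR for the 51 tested genes of the wider list, in order of value, with unadjusted p under 0.05 in red. Itpr2 on the left and S100a1 and Ryr3 on the right have intervals away from 0, and the intervals of the other genes include it.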

How the data were processed

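Poly(A) RNA of Sol muscle was sequenced with 75-base single-end reads. Per the submitters' processing notes and the methods, reads were aligned to mm10 with STAR. The counting tool and the annotation are not given in the sources used here. The authors deposited estimated counts per gene, not normalized, of which 8.33% to 9.94% per library were not whole. They were rounded here, and columns were matched to mice by their numbers. A DESeq2 table of the authors' own comparison (fold changes and p-values) was not used. A total of 25 symbols had been turned into dates.

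The 10 genes and all lists were chosen with earlier results of these data known. The main test was edgeR 4.0.16 in R 4.3.3 (TMM, filterByExpr by genotype, quasi-likelihood test, genotype only, Benjamini-Hochberg adjustment over 12828 genes, threshold 0.05). DESeq2 1.42.0, the tool of the study, and limma 3.58.1 (voom) were alternatives, beside other normalizations, filters, a replicate block and leaving out each mouse. Median transcript lengths, an index without Actn3 and Myh4, and Sln and Atp2a2 over the sum of both pumps were added after seeing the data. Ratios and single genes were compared by 2-sided exact permutation over 20 assignments (smallest p 0.1), and correlations by permutation over 720 pairings. Lengths for TPM came from GENCODE vM21 (the longest protein-coding transcript of a gene), with a length for 24028 of 24411 symbols and 99.7% of counts. The scripts were tested on simulated data. Chi-square per gene between pairs of libraries was at least 9.88, so no library was a repeat of another.

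Named were the 10 genes, Kdm1a, the wider-list genes with an unadjusted p under 0.05 or among its 3 highest or 3 lowest fold changes, the index genes, and for 7 of the 10 genes the 3 genes most like each, of which 1 is not reported here. The wider-list genes that did not overlap between genotypes were named after their values were seen. Same-numbered mice did not deviate together (correlations -0.364, -0.0968 and -0.146), so numbers were not taken as pairs. Totals of 8940206 to 13798059 counts left the 10 genes with at least 112 estimated counts per library (Pln, the lowest) and named genes of the wider list with as few as 10 (Mcub).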

Additional observations from a re-analysis of the deposited data

How the results depend on the processing

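Under the alternatives, the sign of the log2 fold change was kept in 122 of 140 refits of the 10 genes, in 55 of 64 of the ratios (leaving aside TPM and the replicate block, which give the same ratio difference by construction) and in 29 of 40 of the relations to the index, and no gene passed the adjusted threshold in any. The genes that reversed had log2 fold changes near 0 with all mice. Atp2a1 was 0.0038 with DESeq2 size factors and with DESeq2, 0.010 with no filter, 0.0187 with the replicate block, 0.0125 with voom, and -0.109 to 0.204 without single mice. Ryr1 was 0.0052 with the block and -0.147 to 0.234 without single mice, Cacna1s 0.0053 with no filter, 0.0019 with the block and -0.123 to 0.149 without single mice, and Casq2 -0.378 to 0.199 without single mice. Among log2 ratios without single mice, Casq2 to Casq1 ran from -0.196 to 0.274, Pln to Atp2a2 from -0.228 to 0.208 and Ryr1 to Cacna1s from -0.0994 to 0.164. Ryr1 to Cacna1s was -0.0174 from the difference of edgeR fold changes. Relations to the index turned for Atp2a2 (rho -0.0857, r -0.895 without the 2 farthest mice), Pln (-0.0857 and -0.991), Sln (0.018 with library size alone, rho 0.143, r 0.959), and without those 2 mice for Casq1 (0.428), Casq2 (0.731), Pvalb (0.525) and Cacna1s (0.0233). The cause was not tested.

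The count of the 10 genes at an unadjusted p under 0.05 was 2 in place of 1 with DESeq2 and with library size alone (Atp2a2 and Sln in both) and with the replicate block (Sln and Pvalb). It was 1 to 2 without single mice, with Atp2a2 added without WT 1 and Pln without WT 2. That of the wider list was 3 to 5 without single mice, with 5 without WT 1 and without LSD1-mKO 2. Over all genes, adjusted calls were 1 higher and 1 lower, against 33 and 9 with DESeq2, 8 and 3 with no filter, 2 higher with voom, 0 lower with the replicate block, and 1 to 2 higher and 0 to 1 lower without single mice. The lower call was lost without any of the LSD1-mKO mice or without WT 2, and the second higher call came without WT 1. The replicate block gave -0.48 for Sln, 0.32 for Atp2a2 and a difference of 0.30 for the pump ratio (exact sign-flip permutation p = 0.25, the smallest possible), and changed no adjusted call of these genes. With an index left without 2 genes, or with median lengths, no order of levels and no call changed. The lowest counts per library among the named genes were 10 to 37 for Mcub, 29 to 87 for Ryr3 and 112 to 243 for Pln.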

Other observations

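The genes whose log2 CPM ran most like each calcium handling gene over the 6 mice were taken from 10210 tested genes with a mean of at least 5 CPM. They describe libraries that differ in tissue makeup and genotype. As the highest of so many correlations over 6 mice, values this large can arise by selection alone. For the slow pump Atp2a2 the most alike genes were Dnajc8 (Pearson's r 0.999), Cenpb (0.994) and Setd3 (0.994). Dnajc8, a J-domain protein, was at 84.5, 78.8 and 77.0 CPM in the WT mice and at 81.9, 89.2 and 86.5 CPM in the LSD1-mKO mice, with WT 1 again above LSD1-mKO 1, a far narrower range than that of Atp2a2. For the fast pump Atp2a1, Tbl3 (0.995) and Mrps25 (0.992) were among them, both highest in WT 1.

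For Sln they were Rhbdl1 (0.991), Dus1l (0.989) and Zswim8 (0.987), and for Pln Dusp19 (0.986), Acp6 (0.984) and Atp6v0a2 (0.978). Rhbdl1, a rhomboid family gene, was at 13.0, 12.1 and 14.0 CPM in the WT mice and at 11.9, 10.6 and 9.69 CPM in the LSD1-mKO mice, with the same order of mice as Sln. For Casq1 they were Tlr4 (0.993), Synj2 (0.992) and Rnf6 (0.991), for Casq2 Tsc22d2 (0.988), Akr1c14 (0.986) and Golga1 (0.983), and for Pvalb Rps15a-ps6 (0.979), Rab7 (0.979) and Lifr (0.978).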
